A study of Mus musculus with 5 samples.

Results

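The genes described here are the matrix metalloproteinases (MMPs), the ADAMTS proteases, the ADAMTS-like proteins and the tissue inhibitors of metalloproteinases (TIMPs), taken as every row of the expression table whose symbol is Mmp, Adamts or Adamtsl with a number (and, for Mmp, a letter a or b) or Timp with a number from 1 to 4. They came to 51 of the 23857 genes listed, with 23 MMPs, 19 ADAMTS proteases, 5 ADAMTS-like proteins and 4 TIMPs. Bulk RNA was sequenced from stromal cells of the oviduct (fallopian tube) that were sorted for YFP, with 1 library from each young adult female mouse. The control group, mice 2 and 3, had the genotype Pdgfra-Cre;R26Y. The other group, mice 1, 2 and 3, had the genotype Pdgfra-Cre;Esr1(fl/fl);R26Y and is labelled an Esr1 conditional knockout (cKO). All 5 mice therefore carried the Cre recombinase and the R26Y reporter, a YFP gene in the Rosa26 locus that Cre switches on, and per the labels only the floxed Esr1 alleles differed. Cre was driven by the promoter of Pdgfra, a receptor gene of mesenchymal cells, so YFP marks cells in which Cre has been active at any time and not a single stromal type. Levels are in TPM, a unit of transcript abundance that is scaled for gene length and sums to the same total in each library.

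MMPs are zinc endopeptidases that cut collagens, proteoglycans, other matrix proteins and cell surface proteins. Most are secreted as inactive precursors, and the membrane-type MMPs are anchored at the cell surface, where the enzyme encoded by Mmp14 activates the precursor of MMP2 with the help of TIMP2. ADAMTS proteases carry thrombospondin repeats, and different members cut proteoglycans such as versican, process procollagens or act on other matrix proteins, whereas ADAMTS-like proteins have the repeats without a protease domain. TIMPs bind the active site of MMPs, and the product of Timp3 also binds to the matrix and inhibits several ADAM and ADAMTS proteases. In the female reproductive tract these genes are known for the turnover of matrix over the estrous cycle and in ovulation.

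Of the MMP genes, 10 (Mmp13, Mmp12, Mmp1b, Mmp3, Mmp1a, Mmp10, Mmp8, Mmp27, Mmp20 and Mmp7, in that order) lie side by side on chromosome 9 between positions 7272514 and 7699585 (GRCm38, GENCODE M21). Promoter windows from RefSeq for GRCm38.p6, which run from 250 bases before to 50 bases after a gene's start, were given for 36 of the 51 genes as 39 windows. The letters TGANTCA, the site known to be bound by AP-1 (Fos and Jun proteins), were found in 8 of the 39 windows (20.5%) and in 7.81% of all 32851 windows. This pattern reads the same on both strands. All 8 windows belong to the chromosome 9 cluster, and only those of Mmp8 and Mmp27 in it lacked the letters. The full palindromic estrogen response element, GGTCA and TGACC with any 3 bases between them, also the same on both strands, was found in 0 of the 39 windows and in 0.0700% of all windows. Binding was not measured, and a match or its absence describes only the letters of the window. Printed below are 4 stretches of 100 bases, from 120 to 21 bases before the start, 5′ to 3′ on the plus strand with the AP-1 letters in capitals. They are shown because these neighbours share that site and their RNA levels had different patterns over the libraries (below). They lie at chr9:7445702-7445801 (Mmp3), chr9:7502222-7502321 (Mmp10), chr9:7691970-7692069 (Mmp7) and chr9:7272394-7272493 (Mmp13), and the site begins 46, 63, 63 and 35 bases before the start.
Mmp3: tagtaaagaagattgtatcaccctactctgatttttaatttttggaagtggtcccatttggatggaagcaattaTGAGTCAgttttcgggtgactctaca
Mmp10: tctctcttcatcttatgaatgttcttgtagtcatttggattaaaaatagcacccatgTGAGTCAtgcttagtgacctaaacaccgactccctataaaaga
Mmp7: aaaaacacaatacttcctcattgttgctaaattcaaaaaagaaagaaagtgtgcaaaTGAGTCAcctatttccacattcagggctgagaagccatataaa
Mmp13: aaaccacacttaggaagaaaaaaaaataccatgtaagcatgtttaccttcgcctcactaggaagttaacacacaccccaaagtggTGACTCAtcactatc

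Before the proteases, Esr1, the targeted gene, was read in every library as a check of the labels. It stood at 83.3 TPM in control 2 and 77.6 TPM in control 3, against 28.9, 85.0 and 169.9 TPM in the libraries labelled cKO 1, 2 and 3. Only the library labelled cKO 1 lay below both controls, so Esr1 RNA went against the label in libraries 2 and 3. Whole-gene TPM can include RNA that lacks the floxed part, and which part of Esr1 is floxed is not given in the sources used here. Every direction below is therefore a direction between labelled groups. Pdgfra, the gene of the Cre driver, was at 165 to 298 TPM in all 5 libraries. The relative depth was 66.5% of control 2 for control 3 and 48.4%, 82.8% and 67.2% for labelled cKO 1, 2 and 3, and 15841 to 19432 genes reached 1 TPM per library.

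Marker genes of the cells that the sort could hold were summed in each library. The stromal list (8 genes) ran from 16962 to 20834 TPM in controls and from 11488 to 14846 TPM in the labelled cKO libraries. The epithelial list (10 genes) stood at 2977 and 3265 TPM in controls and at 2099.9, 11937 and 13078 TPM in labelled cKO 1, 2 and 3, of which Ovgp1, the oviductin gene, made up most. Without Ovgp1 the other 9 epithelial markers came to 704 and 802 TPM in controls and 578, 1282 and 1820 TPM in labelled cKO 1, 2 and 3. The ciliated list (5 genes in the table) ran from 298 to 316 and from 256 to 425 TPM. The immune list (8 genes) was at 2196 and 2828 TPM against 1687, 1091 and 747 TPM. The mast cell list (6 genes) was at 323 to 386 against 102 to 128 TPM and the neutrophil list (6 genes) at 253 to 377 against 40.6 to 131 TPM. The mesothelial list (6 genes) was at 610.0 to 727 against 366 to 568 TPM, the endothelial list (6 genes) at 183 to 207 against 138 to 219 TPM and the smooth muscle list (6 genes) at 366 to 551 against 413 to 468 TPM. By an unadjusted limma p under 0.05, 3 of 8 stromal, 5 of 8 immune, 5 of 6 mast cell, 4 of 6 neutrophil and 4 of 6 mesothelial markers were lower in the labelled cKO group. The mesothelial list also had 1 marker higher at that p, and the epithelial, ciliated, endothelial and smooth muscle lists had 0 in either direction. No list had a marker past the adjusted threshold. Over all genes, 9.87% were lower and 3.7% higher at an unadjusted limma p under 0.05. In the lists with lower markers, fold changes were above 0 for 3 stromal, 1 immune, 1 mast cell, 1 neutrophil and 1 mesothelial marker. The mast cell marker Kit was at 22.5 and 16.3 TPM in controls and 11.5, 45.9 and 69.5 TPM in labelled cKO 1, 2 and 3. The immune marker Cd3e was at 9.76 and 13.7 against 35.9, 17.2 and 2.57 TPM. Lyz2 made up most of the immune sum. Of all these markers, only Fcer1a, a mast cell receptor gene, was at 0 TPM in any library, in labelled cKO 3. These lists move with several of the genes below, and their part in those results was not tested. In sorted bulk RNA, fewer cells of a type and less RNA per cell cannot be told apart.

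RNA of a few MMP and TIMP genes was abundant in these libraries. Over the 5 libraries, 7 of the 51 genes had a mean of at least 100 TPM, 16 had 10 to under 100, 23 had 1 to under 10, and 5 were under 1 TPM. Together the 51 genes held 0.336% and 0.263% of all TPM in controls 2 and 3 and 0.349%, 0.233% and 0.217% in labelled cKO 1, 2 and 3. The 7 most abundant were Timp2, Mmp2, Timp3, Mmp14, Adamts1, Mmp23 and Adamts2. The others ran down to Mmp1b, which was at 0 TPM in control 3 and labelled cKO 3.

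**Figure D1:**
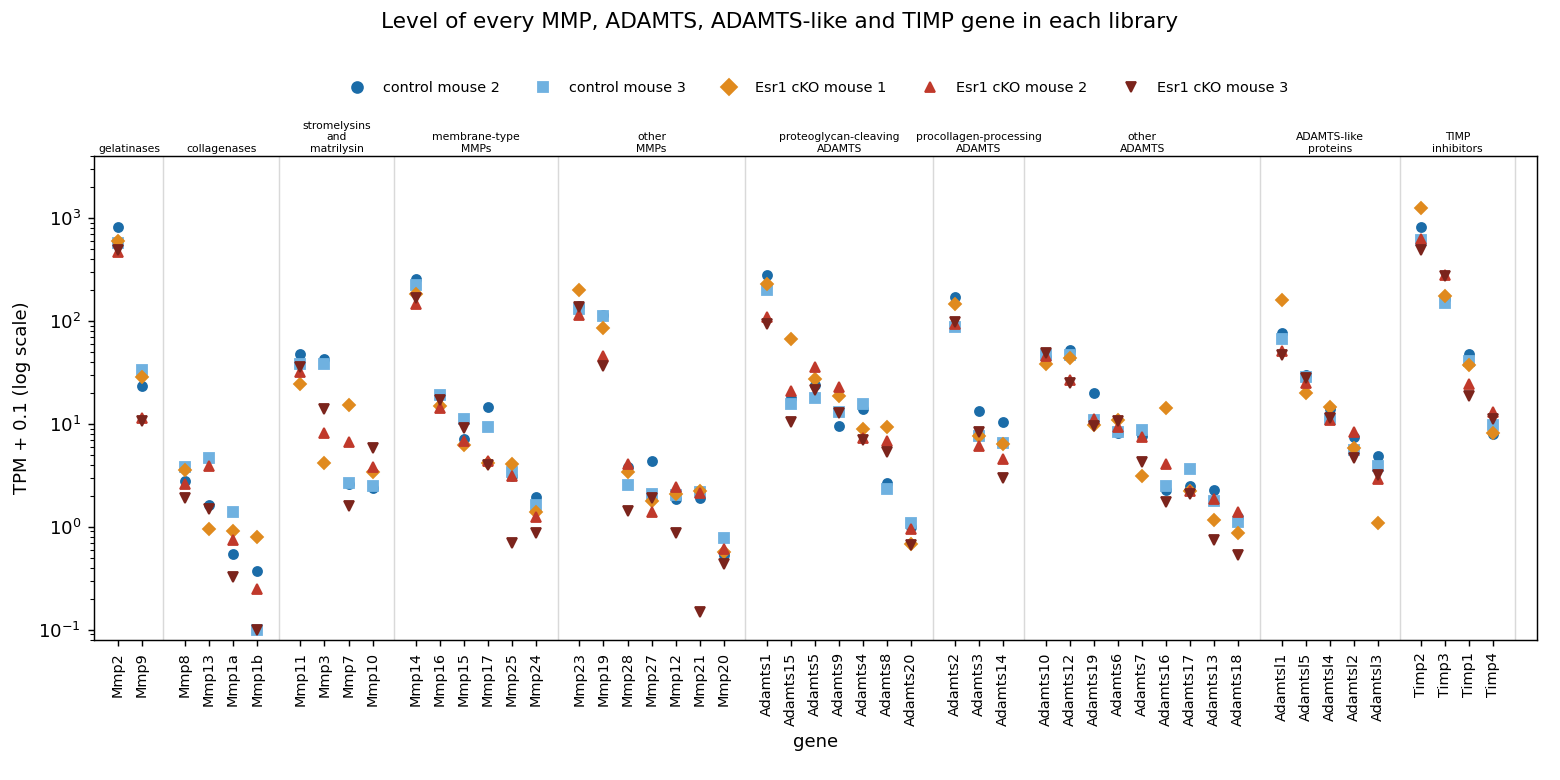
Level of each of the 51 genes in each library, grouped by role, in TPM + 0.1 on a log axis; each point is 1 library. Mmp2 and Timp2 are at the top with 468 to 1249.6 TPM, and Mmp3 shows the widest gap between the groups, with 37.7 and 42.1 TPM in controls against 4.04 to 13.7 TPM in the labelled cKO libraries.

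The comparison asks which of these genes differ between oviductal stromal cells with and without floxed Esr1 alleles under Pdgfra-Cre. In the fit over all 19292 genes tested (limma on log2(TPM + 1)), 47 of the 51 genes passed the filter on low values, and Mmp1a, Mmp1b, Mmp20 and Adamts20 did not. At an adjusted p under 0.05, 0 of the 47 were higher (0.0104% of all genes were) and 0 were lower (0.0156% were) in the labelled cKO group. At an unadjusted p under 0.05, 2 genes were higher, Adamts8 and Timp3 (4.26% of the 47, against 3.7% of all genes), and 7 were lower, Mmp3, Mmp14, Mmp17, Mmp19, Adamts4, Adamts12 and Timp1 (14.9%, against 9.87%). The libraries of both groups did not overlap for 4 higher genes (8.51%, against 11.9% of all genes) and 16 lower ones (34.0%, against 21.9%). Log2 fold changes, labelled cKO against control, were above 0 for 13 genes and below 0 for 34, with a median of -0.29 beside -0.022 for all genes. Under quantile normalization that median was -0.068, and the unadjusted counts were 3 higher and 9 lower. Under median-of-ratios scaling they were 3 and 4. In either direction, 13.3% and 15.6% of all genes passed under these scalings.

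Of the 47 genes, 23, 26 and 34 lay below both controls in labelled cKO 1, 2 and 3, and 16, 14 and 6 lay above both. Labelled cKO 3 thus had the most low values of these genes. Such positions were not counted over all genes. Over all genes, labelled cKO 3 also had the fewest at or above 1 TPM (15841). In the fit without library weights or a block for mouse number, the adjusted calls rested on whether labelled cKO 1 was included. Without labelled cKO 1, limma put 8 of the 47 past an adjusted p of 0.05 as lower (17.0%, against 2.63% of all genes) and 1 as higher (2.13%, against 5.35%). The lower ones were Mmp3, Mmp9, Mmp17, Mmp19, Adamts1, Adamts4, Adamts12 and Timp1, and the higher one was Timp3. The median was then -0.36 beside 0.027 for all genes. In this smaller comparison both remaining labelled cKO libraries had Esr1 at or above the controls, high epithelial markers and low immune markers. At an unadjusted limma p under 0.05, the counts were 3 higher and 12 lower without labelled cKO 1. They were 1 and 4 without labelled cKO 2, and 4 and 7 without labelled cKO 3. In either direction, 29.3%, 12.9% and 10.2% of all genes passed in these comparisons (13.6% over all 5 libraries). With a control left out, the median was -0.21 (without control 2) or -0.31 (without control 3).

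**Figure D2:**
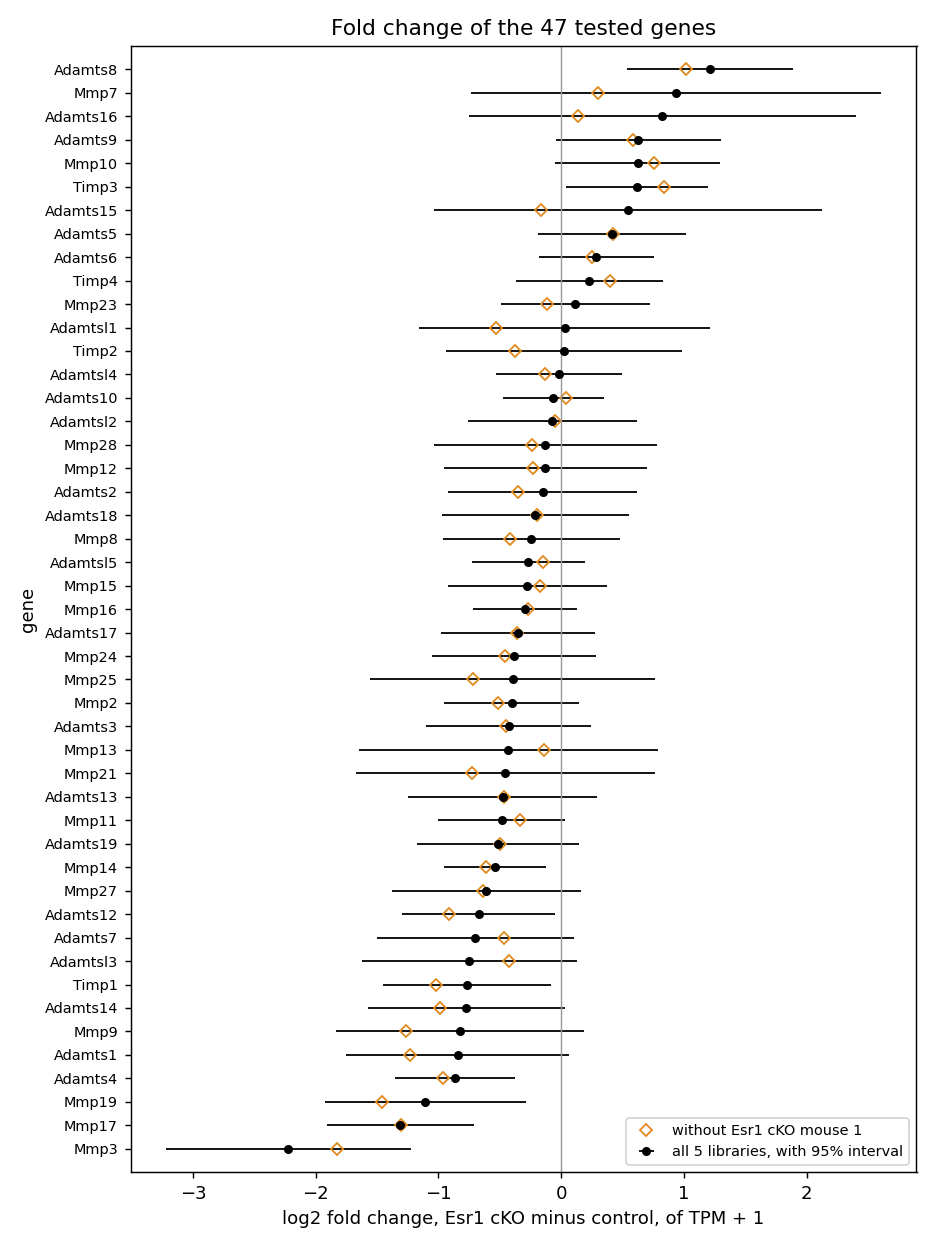
Log2 fold change on the TPM + 1 scale of each of the 47 tested genes, labelled cKO against control, in order of size. Black points and lines are the limma estimates over all 5 libraries with 95% confidence intervals, and open diamonds are the estimates without labelled cKO 1. Black points below 0 are lower in the labelled cKO group, with Mmp3 lowest at -2.22 and Adamts8 highest at 1.21, and none of the black points passed the adjusted threshold.

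Mmp3 had the largest fold change of the 47 genes in either direction. It encodes stromelysin 1, which cuts proteoglycans, fibronectin and other matrix proteins and activates other MMP precursors, and lies on chromosome 9 from 7445822 to 7455975 on the plus strand. Its level was 42.1 and 37.7 TPM in controls 2 and 3 and 4.04, 8.04 and 13.7 TPM in labelled cKO 1, 2 and 3. The groups lay far apart. Labelled cKO 1 had the lowest Esr1 RNA and the lowest Mmp3. Labelled cKO 2 and 3 were also low in Mmp3, with Esr1 RNA above both controls (85.0 and 169.9 TPM). A link between Esr1 and Mmp3 RNA was not tested. The log2 fold change was -2.22 (95% CI -3.22 to -1.23) with a limma adjusted p of 0.153 (unadjusted 0.00118), so the difference did not pass the threshold. Without labelled cKO 1 it was -1.82 with an adjusted p of 0.0209.

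Of the other stromelysin and matrilysin genes, Mmp10 and Mmp7 had patterns unlike that of Mmp3. Mmp11 ran in the same order over the libraries as Mmp3, with a smaller fold change. Mmp10 encodes stromelysin 2, the nearest relative of stromelysin 1. It starts at position 7502352 in the same cluster by GENCODE M21, which is not the RefSeq start used for its promoter window above. Its level was 2.26 and 2.37 TPM in controls and 3.26, 3.68 and 5.65 TPM in the labelled cKO libraries, which came to 63 and 44 reads against 44, 85 and 106. All labelled cKO libraries lay above both controls, opposite to Mmp3, with a log2 fold change of 0.62 ± 0.28 (SE, limma adjusted p 0.390). The ratio of Mmp10 to Mmp3 RNA was 0.0537 and 0.0629 in controls and 0.807, 0.458 and 0.412 in the labelled cKO libraries. Mmp7, the matrilysin gene, which is known from epithelia, was at 2.51 and 2.54 TPM in controls and at 15.2, 6.59 and 1.49 TPM in labelled cKO 1, 2 and 3. Its highest value fell in labelled cKO 1, the shallowest library, where the summed epithelial markers were lowest. The part of epithelial cells in the Mmp7 values was not tested. Mmp11, the stromelysin 3 gene, was at 47.7 and 38.2 TPM against 24.3, 31.6 and 35.8 TPM, without overlap (log2 fold change -0.49 ± 0.22 SE, limma adjusted p 0.385). It overlaps Chchd10 on the opposite strand, and whether counting used strand is not given in the sources used here.

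Among the gelatinases, which cut denatured collagen and basement membrane collagen, Mmp2 was the most abundant MMP gene in every library. It was at 815 and 570.1 TPM in controls and at 598, 468 and 488 TPM in the labelled cKO libraries. The groups overlapped, because labelled cKO 1 lay between the controls (log2 fold change -0.40 ± 0.23 SE, limma adjusted p 0.460). Its share of all MMP RNA was 54.2% and 47.2% in controls and 50.4%, 53.2% and 52.4% in the labelled cKO libraries. Mmp9, the second gelatinase gene, known from neutrophils and macrophages, was at 23.3 and 32.9 TPM in controls and at 28.7, 11.4 and 10.5 TPM in labelled cKO 1, 2 and 3. Labelled cKO 1 lay between the controls and the other two lay well below them. The log2 fold change was -0.83 ± 0.43 (SE, limma adjusted p 0.427) over all libraries and -1.26 (adjusted p 0.0279) without labelled cKO 1. The immune list ran in the same order over the labelled cKO libraries, 1687, 1091 and 747 TPM, but the neutrophil list did not, with 49.3, 131 and 40.6 TPM, and the part of those cells in the Mmp9 values was not tested.

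Collagenase RNA was low. Mmp13, collagenase 3, was at 1.52 and 4.57 TPM in controls and at 0.854, 3.83 and 1.39 TPM in the labelled cKO libraries, so the groups overlapped widely. Mmp8, known from neutrophils, ran from 2.66 to 3.74 TPM in controls and from 1.78 to 3.47 TPM in the labelled cKO libraries. Mmp1a and Mmp1b, related genes between which some reads may be split uncertainly, stayed at or below 1.30 TPM and were not tested.

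All 6 membrane-type MMP genes had a fold change below 0, and 4 of them (Mmp14, Mmp16, Mmp17 and Mmp24) had groups that did not overlap. Of all 19292 genes, 10071 had a fold change below 0 and 21.9% were lower without overlap. Mmp14, on chromosome 14 from 54431612 to 54445364 on the plus strand, was the most abundant, at 256 and 221 TPM in controls and 181, 145 and 166 TPM in the labelled cKO libraries. Every labelled cKO library was below both controls, with a mean of 164 ± 18.0 TPM (SD, n = 3) beside 238 ± 24.8 TPM (SD, n = 2). This gave a log2 fold change of -0.54 ± 0.18 (SE, limma adjusted p 0.293), and -0.61 (adjusted p 0.0504) without labelled cKO 1. Mmp17, whose product is held at the membrane by a lipid anchor, lies on chromosome 5 from 129584169 to 129611099 on the plus strand. It was at 14.4 and 9.15 TPM in controls and at 4.02, 4.20 and 3.89 TPM in the labelled cKO libraries, which differed little from each other (SD 0.158). Its log2 fold change was -1.31 ± 0.25 (SE, limma adjusted p 0.157), the same to 2 decimals without labelled cKO 1, where the adjusted p was 0.0416. Mmp16 was at 18.7 and 18.8 TPM against 14.6, 14.1 and 16.8 TPM, a smaller step (log2 fold change -0.29, limma adjusted p 0.483). Mmp15, Mmp24 and Mmp25 lay between 0.596 and 11.0 TPM in all libraries.

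Of the other MMPs, Mmp19 was the only one with an unadjusted p under 0.05. It encodes a secreted MMP also found on immune cells, on chromosome 10 from 128790910 to 128800824 on the plus strand. It was at 115 and 112 TPM in controls and at 85.8, 45.5 and 36.1 TPM in labelled cKO 1, 2 and 3. All labelled cKO libraries were lower, the first by least, in the order of the immune list (1687, 1091 and 747 TPM), whose part was not tested. Several other genes ran in that order too, among them Timp1, Adamts1 and Adamts12, and also Adamts8, which was higher than in controls. The log2 fold change of Mmp19 was -1.11 ± 0.34 (SE, limma adjusted p 0.276), and -1.46 (adjusted p 0.0140) without labelled cKO 1. Mmp19 overlaps Tmem198b on the opposite strand. Mmp23, which encodes a membrane-bound MMP known from reproductive tissues, was at 139 and 130.1 TPM in controls and at 201, 113 and 135 TPM in the labelled cKO libraries. Only labelled cKO 1 lay above both controls, and the sign of the fold change rested on it (0.11 with it, -0.12 without). The remaining 5 genes, Mmp12, Mmp20, Mmp21, Mmp27 and Mmp28, lay at or below 4.22 TPM. Mmp21 was even over 4 libraries, 1.82 to 2.12 TPM or 31 to 55 reads, and was at 0.0491 TPM or 1 read in labelled cKO 3.

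**Figure D3:**
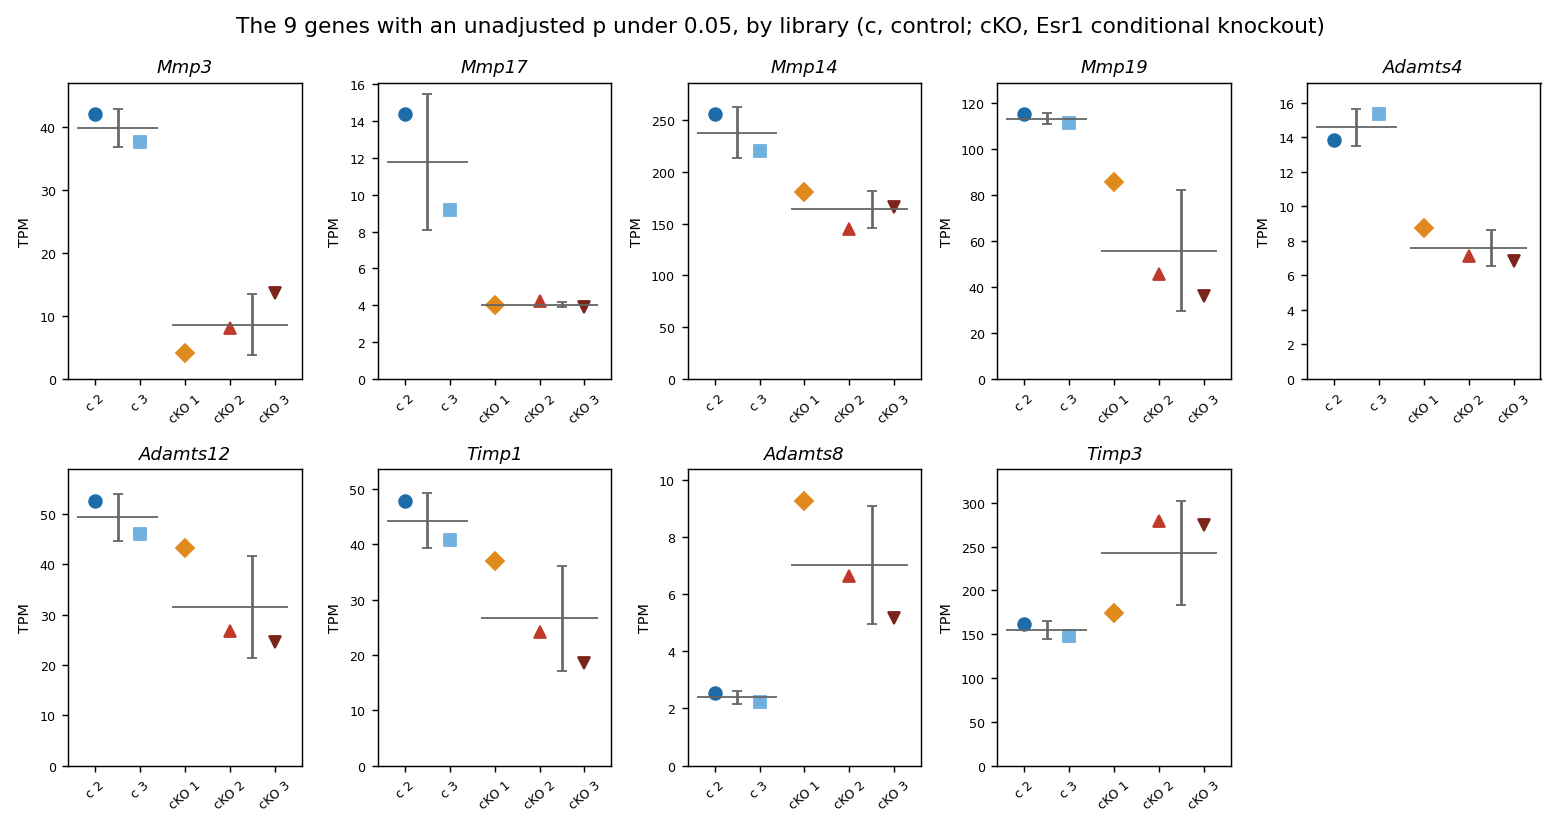
TPM of the 9 genes with an unadjusted limma p under 0.05 in each library, with group means (lines) and SD (bars; n = 2 controls, n = 3 labelled cKO). In each panel the groups do not overlap: 7 genes are lower in the labelled cKO libraries, and Adamts8 and Timp3 are higher; none passed an adjusted p of 0.05.

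The ADAMTS proteases that cut proteoglycans had fold changes of both signs. Adamts1, which is known for its role in ovulation, was the most abundant ADAMTS gene in every library but labelled cKO 3, where Adamts2 was slightly higher. It was at 282 and 201 TPM in controls and 226, 110.0 and 92.3 TPM in labelled cKO 1, 2 and 3. Labelled cKO 1 lay between the controls and the other two below them. Over all libraries the log2 fold change was -0.85 ± 0.38 (SE, limma adjusted p 0.390), and -1.23 (adjusted p 0.0260) without labelled cKO 1. Adamts4, an aggrecan-cutting protease, lies on chromosome 1 from 171250421 to 171260637 on the plus strand. It was at 13.8 and 15.3 TPM in controls and at 8.75, 7.14 and 6.86 TPM in the labelled cKO libraries. Its groups did not overlap, with a mean of 7.58 ± 1.02 TPM (SD, n = 3) beside 14.6 ± 1.07 TPM (SD, n = 2). Its log2 fold change was -0.87 ± 0.21 (SE, limma adjusted p 0.198; 0.0353 without labelled cKO 1).

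Adamts8 was higher in each labelled cKO library than in either control. It was at 2.55 and 2.23 TPM in controls and at 9.26, 6.63 and 5.18 TPM in labelled cKO 1, 2 and 3, and its product is also a protease of the aggrecan-cutting group. The log2 fold change was 1.21 (95% CI 0.54 to 1.88, limma adjusted p 0.197), and 1.02 (adjusted p 0.0690) without labelled cKO 1. Adamts8 (chromosome 9, 30942562 to 30963838, plus strand) is the neighbour of Adamts15 (30899155 to 30922452, minus strand). Adamts15, a versican-cutting protease, was at 17.6 and 15.5 TPM in controls and at 66.7, 20.9 and 10.2 TPM in labelled cKO 1, 2 and 3. Both neighbours were highest in labelled cKO 1 and ran in the same order over the labelled cKO libraries, but Adamts15 overlapped the controls (log2 fold change 0.54 ± 0.67 SE; limma adjusted p 0.711).

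Adamts5 and Adamts9, both known to cut versican, had positive fold changes with overlapping groups. Adamts5 was at 23.6 and 17.6 TPM in controls and at 27.1, 35.4 and 21.4 TPM in the labelled cKO libraries (log2 fold change 0.41, limma adjusted p 0.489). It is the neighbour of Adamts1 on chromosome 16, whose fold change had the opposite sign. Adamts9 was at 9.34 and 13.0 TPM against 18.5, 22.8 and 12.7 TPM (log2 fold change 0.63, limma adjusted p 0.388). Adamts20 stayed under 1 TPM and was not tested.

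The procollagen-processing proteases remove the amino-terminal propeptide of fibrillar collagens. Adamts2 was at 169.7 and 87.3 TPM in controls and at 145, 92.6 and 97.9 TPM in the labelled cKO libraries. The gap between the 2 controls exceeded the range of the labelled cKO libraries, and the groups overlapped (log2 fold change -0.15, limma adjusted p 0.837). Adamts14 was at 10.4 and 6.38 TPM against 6.20, 4.48 and 2.89 TPM, without overlap but with a narrow gap (limma adjusted p 0.378). Adamts3 ran from 7.50 to 13.2 TPM in controls and from 5.99 to 8.23 TPM in the labelled cKO libraries.

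Among the other ADAMTS genes, Adamts12 was at 52.5 and 46.0 TPM in controls and at 43.2, 26.7 and 24.6 TPM in labelled cKO 1, 2 and 3. It lies on chromosome 15 from 11064790 to 11349231 on the plus strand, and its product is known to cut the cartilage matrix protein COMP. The groups did not overlap, though labelled cKO 1 came close to control 3. Its log2 fold change was -0.67 ± 0.26 (SE, limma adjusted p 0.346), and -0.91 (adjusted p 0.0245) without labelled cKO 1. Adamts10, whose product binds fibrillin, was nearly level, at 44.8 and 46.3 TPM against 37.8, 45.1 and 48.3 TPM (log2 fold change -0.06, limma 95% CI -0.47 to 0.35). Adamts19 was at 19.9 and 10.8 TPM against 9.61, 11.0 and 9.35 TPM, so control 2 alone stood high. Adamts16, at 2.16 and 2.40 TPM in controls, was at 14.0, 3.94 and 1.64 TPM in labelled cKO 1, 2 and 3. Adamts6 lay higher without overlap (at most 8.29 TPM in controls and at least 9.13 TPM in the labelled cKO libraries), and Adamts7 lower (7.55 to 8.62 against 3.02 to 7.36 TPM). Adamts13, Adamts17 and Adamts18 lay between 0.429 and 3.53 TPM.

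The ADAMTS-like genes showed 0 members with an unadjusted p under 0.05. Adamtsl1 was the most abundant, at 76.4 and 66.4 TPM in controls and 158, 51.3 and 46.9 TPM in labelled cKO 1, 2 and 3. Labelled cKO 1 was above both controls and the other two were below both, so that the log2 fold change was 0.03 ± 0.50 (SE, limma adjusted p 0.982) with it and -0.53 (adjusted p 0.0627) without it. Adamtsl5 was at 30.0 and 28.2 TPM against 20.0, 24.7 and 27.7 TPM, without overlap but with a gap of less than the spread of the labelled cKO libraries. Adamtsl4, which encodes a protein of the fibrillin microfibrils, was at 13.8 and 11.0 TPM against 14.4, 10.9 and 11.4 TPM. Adamtsl2 and Adamtsl3 lay between 0.997 and 8.18 TPM.

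The 4 inhibitors had different patterns over the libraries. Timp2 was the most abundant, at 821 and 612 TPM in controls and 1249.6, 618 and 485 TPM in labelled cKO 1, 2 and 3. It was highest in labelled cKO 1 and lowest in labelled cKO 3, with a log2 fold change of 0.02 ± 0.40 (SE, limma adjusted p 0.981). Timp3 was at 162 and 148 TPM in controls and at 174, 279 and 274 TPM in the labelled cKO libraries. All 3 lay above both controls, the first by little. The log2 fold change was 0.62 ± 0.24 (SE, limma adjusted p 0.350), and 0.84 (adjusted p 0.0218) without labelled cKO 1. The summed epithelial markers were also high in labelled cKO 2 and 3 (11937 and 13078 TPM, mostly Ovgp1, and 1282 and 1820 TPM without it) and not in labelled cKO 1, and their part in the Timp3 values was not tested.

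Timp1, a secreted inhibitor induced in many forms of tissue remodelling, was at 47.8 and 40.8 TPM in controls and at 37.0, 24.2 and 18.5 TPM in labelled cKO 1, 2 and 3. All labelled cKO libraries were below both controls, opposite to Timp3. This was a log2 fold change of -0.77 ± 0.29 (SE, limma adjusted p 0.341), and -1.02 (adjusted p 0.0305) without labelled cKO 1. The ratio of Timp3 to Timp1 RNA was 3.38 and 3.62 in controls and 4.71, 11.5 and 14.8 in the labelled cKO libraries. Timp4 was at 7.91 and 9.74 TPM against 8.05, 12.9 and 10.9 TPM, with overlap (limma adjusted p 0.678). Timp1, Timp3 and Timp4 lie inside the spans of the synapsin genes Syn1, Syn3 and Syn2 on the opposite strand. Syn1 and Syn3 were at or below 3.10 TPM, but Syn2 was at 7.19 and 3.23 TPM in controls and 2.59, 17.6 and 29.4 TPM in the labelled cKO libraries, so the Timp4 values are uncertain if strand was not used.

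Summed by class, MMP RNA came to 1504 and 1209 TPM in controls and 1187, 879 and 931 TPM in labelled cKO 1, 2 and 3. All labelled cKO libraries were below both controls, labelled cKO 1 by little. ADAMTS RNA came to 683 and 495 TPM against 638, 415 and 360.0 TPM, and ADAMTS-like RNA to 132 and 115 TPM against 199.6, 97.8 and 93.5 TPM. TIMP RNA came to 1039 and 811 TPM against 1469, 934 and 788 TPM. The groups overlapped for all classes but the MMPs.

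The ratio of TIMP to MMP RNA was 0.691 and 0.671 in controls and 1.24, 1.06 and 0.847 in labelled cKO 1, 2 and 3, without overlap. Timp2 made up most of the TIMP sum in every library, and the share of Timp3 differed between libraries. Timp2 held 79.1% and 75.6% of it in controls and 85.1%, 66.1% and 61.5% in labelled cKO 1, 2 and 3, and Timp3 held 15.6% and 18.2% against 11.9%, 29.9% and 34.8%. The sums and ratios were formed after earlier results were known and were not tested, and they are amounts of RNA, not of active protein.

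**Figure D4:**
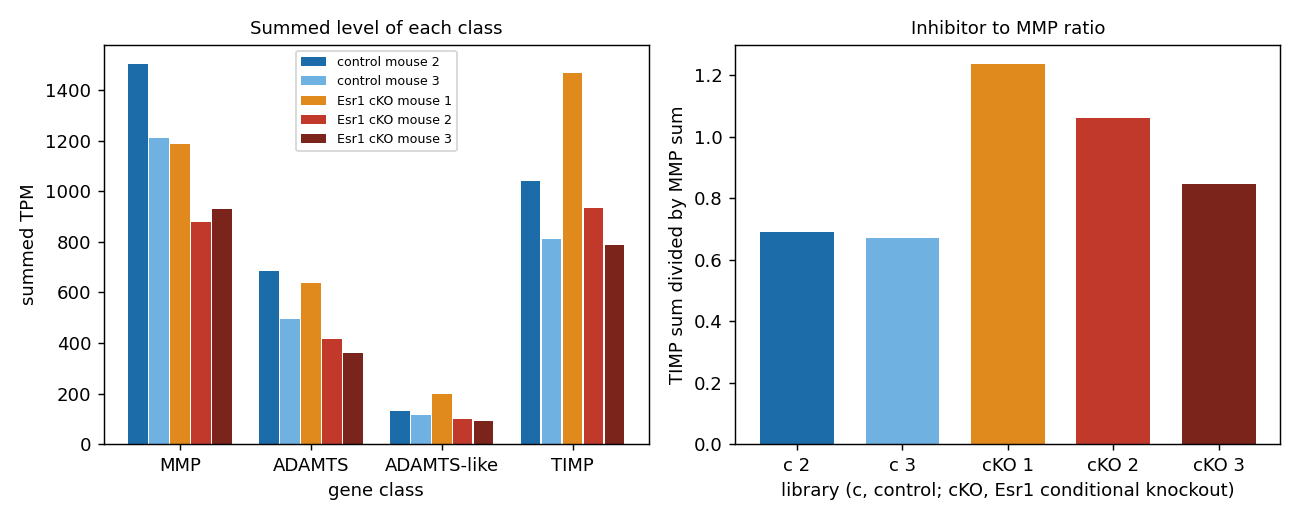
Summed TPM of the MMP, ADAMTS, ADAMTS-like and TIMP genes and the ratio of TIMP to MMP RNA in each library; each bar is 1 library. The MMP sum is 1209 and 1504 TPM in controls and 879 to 1187 TPM in the labelled cKO libraries, and the ratio is 0.671 and 0.691 against 0.847 to 1.24.

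Several genes stood apart in the library labelled cKO 1 alone, which was also the shallowest, at 48.4% of the depth of control 2. Its value over the highest of the other 4 libraries was 3.54 for Adamts16, 3.19 for Adamts15, 2.30 for Mmp7, 2.07 for Adamtsl1, 1.52 for Timp2 and 1.45 for Mmp23. Mmp3 (4.04 TPM) and Esr1 RNA were both lowest of all 5 libraries there, and a link between them was not tested. These are values of 1 mouse.

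**Figure D5:**
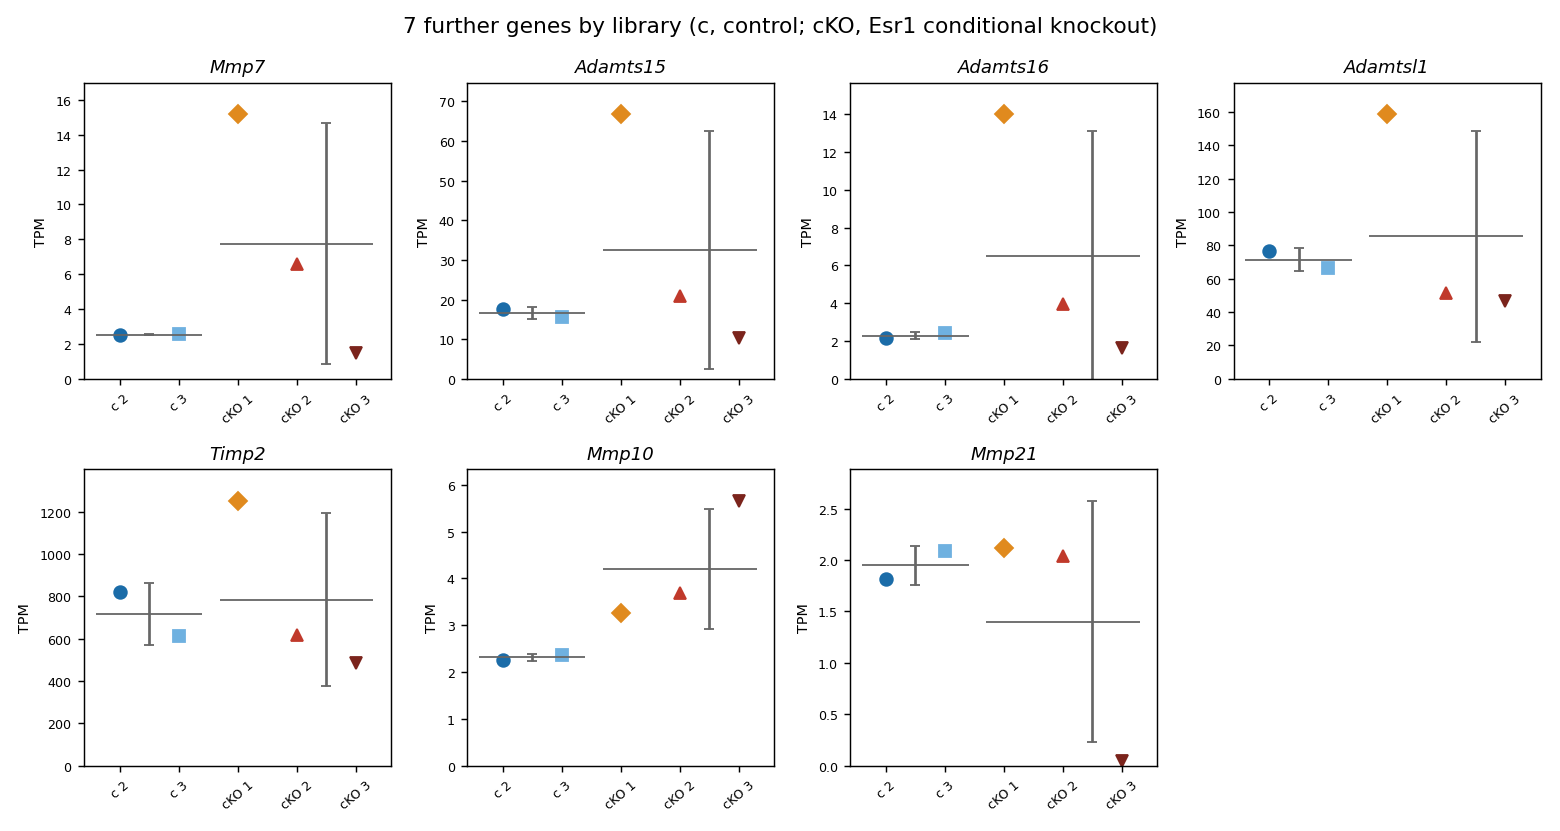
TPM of 7 further genes in each library, with group means (lines) and SD (bars, not drawn below 0). Mmp7, Adamts15, Adamts16, Adamtsl1 and Timp2 are highest in labelled cKO 1, Mmp10 is above both controls in all labelled cKO libraries, and Mmp21 is at 0.0491 TPM in labelled cKO 3.

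Of 17 other metzincins, the ADAM and astacin proteases that share the zinc-binding fold, 0 passed the adjusted threshold. At an unadjusted p under 0.05, 1 was higher and 4 were lower, with a median log2 fold change of -0.33 over the list. Over all genes, 3.7% were higher and 9.87% lower at that p, with a median of -0.022. Tll1, which encodes a procollagen C-proteinase, was the higher one, at 2.56 and 2.12 TPM in controls and 5.60, 7.12 and 6.12 TPM in the labelled cKO libraries (limma adjusted p 0.187). Adam12, a membrane protease of mesenchymal cells, was at 34.7 and 18.9 TPM against 11.5, 8.98 and 5.24 TPM (limma adjusted p 0.198). Adam19 ran from 19.4 to 25.3 TPM in controls and from 11.6 to 16.6 TPM in the labelled cKO libraries, and Tll2 and Mep1b were at or below 2.97 TPM.

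A list of 17 genes held activators, other inhibitors and clearance genes of these proteases together with other genes, among them the peptidase genes Dpp4 and Fap. Of the 17, 0 were higher and 3 lower at an unadjusted p under 0.05, with 0 past the adjusted threshold. The median was -0.21 (all genes: 3.7%, 9.87% and -0.022). Tfpi2, a Kunitz-type protease inhibitor of the matrix, was at 24.0 and 20.8 TPM in controls and 12.1, 5.17 and 6.61 TPM in the labelled cKO libraries (limma adjusted p 0.193). The cell surface peptidases Dpp4 and Fap were lower as well. Dpp4 was at 44.7 and 43.6 TPM against 19.2, 25.0 and 19.0 TPM (limma adjusted p 0.140), and Fap at 36.5 and 27.2 TPM against 15.5, 14.9 and 17.7 TPM (limma adjusted p 0.187). No labelled cKO library reached a control value for these 3 genes.

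Of 18 substrates and ligands, 1 was higher and 7 lower at an unadjusted p under 0.05, with 0 past the adjusted threshold and a median of -0.56 (all genes: 3.7%, 9.87% and -0.022). Eln, the elastin gene, was at 279 and 160.1 TPM in controls and 73.8, 65.1 and 72.3 TPM in the labelled cKO libraries (limma adjusted p 0.118). Fn1, the fibronectin gene, was at 898 and 675 TPM against 262, 439.9 and 467 TPM (limma adjusted p 0.239). The fibrillar collagen genes Col1a1, Col3a1 and Col1a2 had log2 fold changes of -0.96, -0.74 and -0.69, and the low genes Bcan and Col2a1 (at or below 3.40 TPM) were the remaining lower ones. Fbn2, a fibrillin gene, was the higher one, at 7.56 and 10.4 TPM against 13.1, 23.9 and 18.8 TPM (limma adjusted p 0.263). Col1a1 and Col1a2 are also in the stromal marker list. Without labelled cKO 1, the genes past the adjusted threshold were 1 higher and 1 lower among the metzincins, 3 lower in the second list, and 1 higher and 1 lower among the substrates. Of all genes, 5.35% were higher and 2.63% lower in that comparison.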

How the data were processed

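Per the labels, total RNA of the sorted cells was made into libraries with a low-input SMARTer mRNA kit. The authors deposited 1 table of TPM per gene (23857 genes, 5 libraries, each summing to 1000000). The table's name says that STAR was used, and the submitters' processing notes name mm10. The counter, annotation, filters and strand use are not given in the sources used here. Since TPM gives shares, total depth is not kept. Relative depth was estimated from the steps between low values, and reads of low genes were recovered for 5 of 18 genes under a mean of 5 TPM. Both steps were tested on simulated data.

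Groups and mouse numbers came from the labels. Values were fitted as log2(TPM + 1) with limma 3.58.1 in R 4.3.3 (lmFit, eBayes with trend, genotype only) over genes with at least 1 TPM in at least 2 libraries. P-values are two-sided and were adjusted by Benjamini-Hochberg over all 19292 genes, with a threshold of 0.05. Fold changes on this scale understate those of low genes. The fit was tested on simulated data with 200 genes changed by a log2 of 1, 2 or 3. At the adjusted threshold it recovered 0%, 71% and 89.5% of them, and called 0, 7 and 7 unchanged genes. Changes of about a log2 of 1 would therefore mostly be missed. Tools were Python 3.11.15, numpy 2.4.6, pandas 2.3.3 and matplotlib 3.10.9. As alternatives, the pseudocount, the low-value filter, the scaling and the variance model were changed 1 at a time, libraries were weighted, a block for mouse number was added and each library was left out.

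The genes, lists and roles were chosen with earlier results of these data known. Genes are named with every library's value where they are TIMPs, have a mean of at least 10 TPM, or have a mean of at least 1 TPM and an unadjusted p under 0.05. Related genes are named at a mean of at least 1 TPM and an unadjusted p under 0.05, at most 8 a list. Mmp7, Mmp8, Mmp10, Mmp13, Mmp21, Adamts3, Adamts6, Adamts7, Adamts14, Adamts16 and the related gene Mep1b fall outside this rule, and their values were seen before they were chosen. The marker lists are stromal, epithelial, ciliated, immune, mast cell, neutrophil, endothelial, smooth muscle and mesothelial. Positions come from GENCODE M21 (GRCm38).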

Additional observations from a re-analysis of the deposited data

How the results depend on the processing

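The median log2 fold change of the 47 genes stayed negative in every alternative run. It moved most under quantile normalization, to -0.068, and leaving out each library in turn gave -0.36 to -0.21. The count of genes past the adjusted threshold was 0 in both directions over all libraries. With library weights it was 1 higher (Adamts8) and 4 lower (Mmp3, Mmp17, Mmp19 and Adamts4). With the mouse number as a block it was 1 higher and 10 lower. Of all 19292 genes, 656 and 1858 passed in these 2 settings, against 5 in the fit without weights or block. Leaving out each library in turn gave 0 to 1 higher and 0 to 8 lower, and the calls were made without labelled cKO 1. The 9 genes with an unadjusted p under 0.05 kept their sign in all alternatives run, and the limma adjusted p ran from 0.0117 to 0.729 for Mmp3 and from 0.0335 to 0.815 for Mmp17. The labels do not say that a mouse number marks a shared litter or day, the deviations of same-numbered mice correlated at -0.06 and -0.07 across genes, and labelled cKO 1 has no partner, so the block uses only the other 4 libraries.

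Some fold changes changed sign, that of Adamts15 (0.54 over all libraries) the largest among them. Under quantile normalization Mmp23 was at -0.014, Adamtsl1 at -0.12 and Timp2 at -0.052. Without Rpph1 and Rn45s, abundant non-coding RNAs, Adamtsl1 was at -0.032 and Timp2 at -0.038, and under median-of-ratios scaling Adamtsl4 was at 0.025. With library weights Mmp23, Adamtsl1 and Timp2 were at -0.091, -0.32 and -0.17. With the mouse number as a block, Mmp23 was at -0.12, Adamts15 at -0.16, Adamts10 at 0.035, Adamtsl1 at -0.53 and Timp2 at -0.37. Leaving out each library in turn gave -0.12 to 0.30 for Mmp23, -0.16 to 1.13 for Adamts15, -0.63 to 0.32 for Adamts2, -0.14 to 0.035 for Adamts10, -0.53 to 0.34 for Adamtsl1, -0.17 to 0.13 for Adamtsl4 and -0.37 to 0.31 for Timp2. The cause was not tested. Without a control, 1 control is left and is assumed to vary like the labelled cKO group. With 2 controls and 3 other libraries, and no recorded total depth, a p that misses the threshold does not show that levels were alike.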
